A study of Mus musculus with 70 samples.

Results

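The genes described here encode the ligands and receptors that steer growing axons: semaphorins, ephrins, Slits and netrins, and the plexins, neuropilins, Eph receptors, Robo receptors and netrin receptors that read them. They were taken by gene symbol from the autosomal protein-coding genes of the mouse annotation (GENCODE M21 on mm10), which gave 66 of 20807 genes. Their transcription start sites (TSSs) lie in 157 of the 35186 bins of 10 kb that hold a TSS of such a gene. There were 34 ligands, namely 7 ephrins, 7 secreted and 13 membrane semaphorins, 3 Slits and 4 netrins. The 32 receptors were 14 Eph receptors, 7 plexins, 2 neuropilins, 4 Robo receptors and 5 netrin receptors. The rule itself reads symbols and no measured value.

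Axon guidance molecules attract or repel the growth cone at the tip of an axon. Netrins act through Dcc and the Unc5 receptors, Slits repel through Robo receptors, semaphorins signal through plexins with neuropilins as co-receptors for the secreted class, and ephrins bind Eph receptors on neighbouring cells, with signals passing into both cells. Many of the same genes are also used outside the nervous system, in blood vessels, limb buds, the face and other growing organs.

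The measurement was H3K4me3 PLAC-seq, in which proximity-ligated chromatin is immunoprecipitated with an antibody against a histone mark of active and poised promoters, so that contacts of promoters are enriched. Tissues came from C57BL/6N mice, collected from females, and the labels name no treatment or genotype. At embryonic day (E) 12.5 there were 4 neural tissues, the neural tube (NT), hindbrain (HB), midbrain (MB) and forebrain (FB), and 3 others, the liver (LV), the craniofacial prominence (CF) and the limb (LM). Forebrain was also taken on each day from E13.5 to E16.5 and on the day of birth (P0). Each of these 12 tissue-stages had 2 biological replicates of PLAC-seq, and CTCF ChIP-seq was made in the same 12. For CTCF the labels give a single library for FB at P0 and technical replicates for LV and for FB at E14.5. An interaction is a pair of 10-kb bins that the authors called with MAPS, which models how many read pairs any 2 bins should share, and a gene's number of interactions is the number of called pairs with an end in one of its TSS bins. Whole tissues were assayed, so fewer cells of a type and less signal per cell cannot be told apart. MAPS tests a pair only where an H3K4me3 peak lies at an end, so a number of 0 says that no interaction was called, not that none was there.

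The 24 replicate libraries held between 11396 and 63868 interactions, with the lowest totals in LV (15016 and 11396) and in the first LM library (12461). Numbers were therefore scaled to the median total of 25872 before libraries were compared, and "scaled number" is used below for these values. Across genes, log2 numbers of the 2 replicates of a tissue-stage correlated with r from 0.683 (NT) to 0.854 (FB at P0). The second NT library had a lowest count of 12 read pairs per interaction, against 6 or 7 in the others. Interactions in liver were also shorter, with a median distance of 160 and 170 kb against 230 to 300 kb elsewhere. The summed scaled number over 6 matched red cell precursor genes was 41.4 and 59.0 in liver and between 0 and 4.37 in the other libraries, and over 8 hepatocyte genes it was 19.0 and 20.4 in liver and 1.05 to 8.30 elsewhere, although Alb and Hnf4a of that list had no interaction in any library. The sum over 8 neuronal genes ran from 4.83 to 94.2 in the neural libraries and from 0 to 3.45 in limb, face and liver. Myt1l alone held 70.3 of the 94.2, and Tubb3 had no interaction in any library. The sum over 10 mesenchyme genes was 140 to 157 in LM and CF. In FB at E12.5 it was 138 and 145, of which Lhx2 alone, a gene also active in the forebrain, held 121 and 134. Without Lhx2 the sum was 130 to 137 in LM and CF and 3.45 to 26.4 in the other tissues at E12.5. Over 10 endothelial genes the sum was 10.3 and 6.81 in liver and 0 to 6.23 elsewhere.

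Every one of the 66 genes had at least 1 interaction in the 12 pooled call sets, which the authors made by summing replicates and drawing the same number of reads for each tissue-stage. Of all 20807 genes, 76.1% had one. Totals over these 12 sets ran from 1 (Sema4f) to 631 (Nrp1), with a median of 81. The numbers grow with the number of TSS bins of a gene, so levels of different genes were set side by side per TSS bin. By that average the neuropilins led, with 631 interactions per TSS bin for Nrp1 and 535 for Nrp2, the co-receptors of secreted semaphorins. Epha4 followed with 303.5, the plexin Plxna4 with 284, Ephb1 with 283, the ephrin Efna5 with 282 and the netrin Ntn1 with 236. The average hides unequal bins. Of the 2 TSS bins of Epha4, 1 held 606 calls, and of the 2 of Plxna4, 1 held 568. Both of these bins were above the only bin of Nrp2. Among the leaders of the other families by total, the membrane semaphorin Sema5a had 150.5 per TSS bin and the netrin receptor Unc5b 134.5. Another membrane semaphorin, Sema4c, had a smaller total but 164 in its only TSS bin. Slit2 had 209 interactions over 10 TSS bins and Robo2 had 240 over 7, and Sema3a and Sema3f, the leading secreted semaphorins, had 60 each. The neuropilins, 2 of 66 genes, took part in 12.0% of the 9705 pooled calls of the whole group, and the 7 secreted semaphorins in 2.08%.

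By scaled number, liver had the smallest sums for the group and limb the largest at E12.5. Scaled numbers summed over the 66 genes were 196 and 168 in LV, 610 and 538 in LM, and 343 to 506 in the other tissues at E12.5. Limb did not lead in the pooled sets, which were not scaled. There NT held 1031 interactions of the group, LM 855 and HB 845. As a share of all pooled interactions these were 1.44%, 1.53% and 1.36%. Interactions of these genes made up 1.21% to 1.56% of all pooled interactions in 11 tissue-stages and 0.615% in liver (135 of 21945 interactions, against 737 to 1033 of 51264 to 79677 in the others). In liver 35 of the 66 genes had no pooled interaction. The same count was not made over all genes, so it is not shown to be particular to this group. The low total of the liver call set moves with the liver share of 0.615%, and its part in that share was not tested.

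Only genes with a mean scaled number of at least 1 over the 24 libraries were tested, 46 of the 66 and 5501 of all genes. The other 20 were Efnb3, Epha1, Epha2, Epha6, Epha7, Epha8, Epha10, Ephb4, Ntn3, Ntn5, Plxnb2, Robo4, Sema3c, Sema3d, Sema3e, Sema3g, Sema4f, Sema4g, Sema6c and Unc5d, with pooled totals of 1 to 29.

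**Figure D1:**
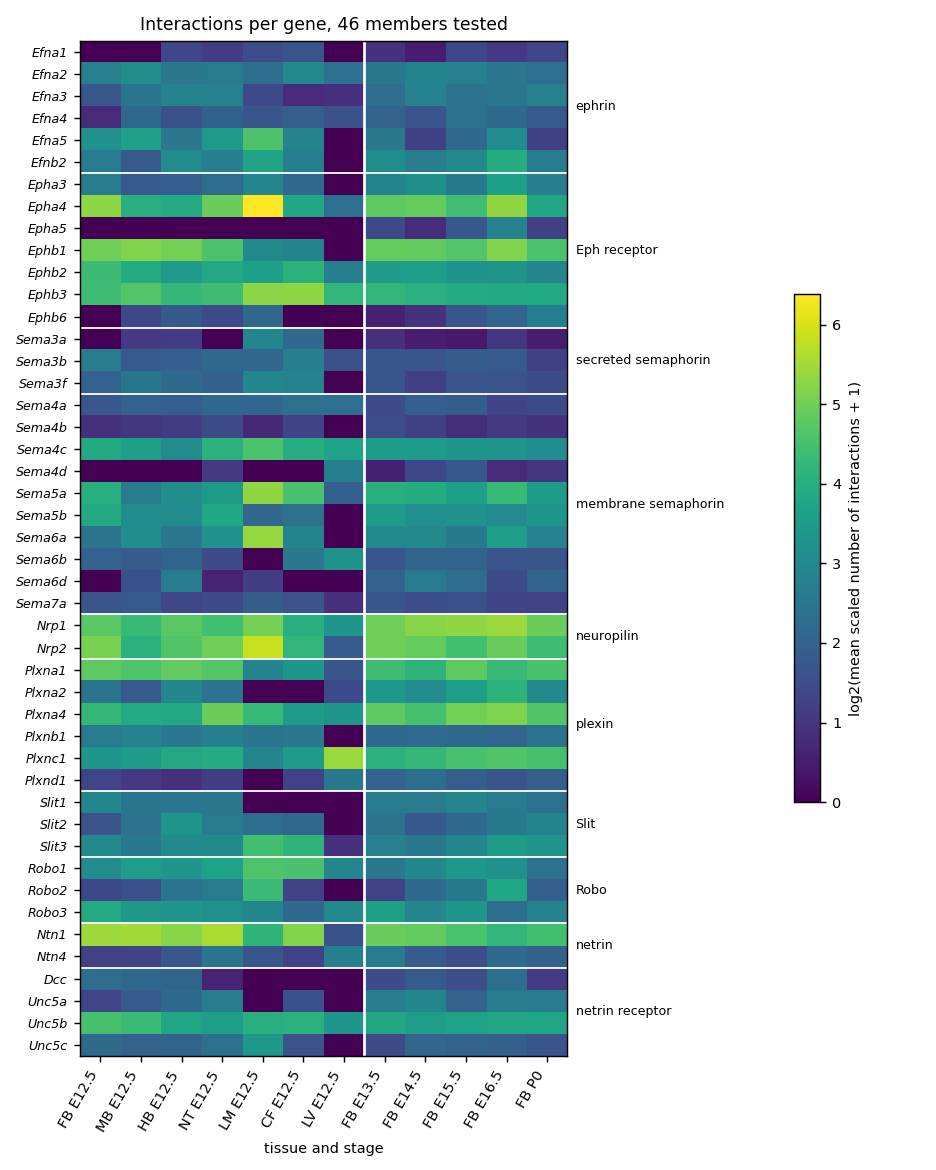
Colour shows log2 of the mean scaled number of interactions plus 1 (mean of 2 replicate libraries) for the 46 genes tested, in rows by family, and the 12 tissue-stages, in columns, with the 7 tissues at E12.5 left of the white line and the later forebrain right of it. The liver column is the darkest, with 20 of the 46 genes at 0 in both libraries, and Epha4 in limb is the brightest cell. Genes at 0 in liver were not counted over all genes tested.

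The 9705 pooled calls were 2446 distinct interactions with a median distance of 390 kb, against 280 kb for the 180478 distinct interactions at any protein-coding TSS bin. Counted per call, the medians were 380 and 280 kb. Of the 2446, 224 (9.16%) were called in at least 10 of the 12 tissue-stages, and these belonged to 38 genes. Over all TSS bins the share was 5.62% of 180478. At the other end, 784 (32.1%) were called in 1 tissue-stage only, against 46.3% over all TSS bins. Of the 103 interactions called in 11 tissue-stages, 90 (87.4%) lacked liver, and over all TSS bins 71.9% of 3834 did. Distances, tissue-stages and calls come from the same call sets, and no test was made of these shares.

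For each gene the most widely shared partner bin was taken. It was called in at least 10 tissue-stages for 38 genes, at distances of 30 to 960 kb (median 270 kb). For 14 genes it was called in all 12 tissue-stages, and for 8 of these in all 24 libraries. For 21 genes it was called in 11, and liver was the missing one in 19. The exceptions were Ntn4, a laminin-like netrin, whose partner was not called in CF, and Sema6b, a membrane semaphorin, whose partner was not called in LM.

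A partner bin often held a CTCF peak, the binding site of the factor at which loop extrusion stalls. Among the 38 partners, 29 held a peak in all 12 CTCF lists, 6 in none and 3 in some. The same count was not made for partners of other genes. Over all pooled calls of these genes, 18.4% to 27.6% had a peak at both ends, against 25.7% to 36.9% over all TSS bins. The shares with a peak at neither end were 2.62% to 14.2% and 9.19% to 19.7%. Both shares were lower for these genes in each of the 12 tissue-stages. The 6 without a peak were those of Ephb3, Nrp1, Robo1, Sema5a, Slit2 and Unc5b. The TSS bin held a peak in all 12 lists for 22 of the 38. The strand of the CTCF motif was read from the 12-letter match CCNNNAGNNGGC, searched on both strands within 50 bases of a peak summit, which 43.8% of all summits had on either strand. Only matches at summits of at least 6 lists were used. For 10 of the 38 genes the matches at each end had a single strand. In 6 of these, Efna2, Plxnc1, Robo3, Sema6b, Sema7a and Unc5a, the matches at the TSS bin and at the partner bin faced each other, and in the other 4, Nrp2, Plxna1, Plxna4 and Sema4c, they pointed the same way. The matches of Plxnc1, Robo3 and Sema7a are printed because they face each other, and those of Nrp2 as an example of matches that do not. Capitals mark the match, each sequence is written along the strand of the match, and all are from the mm10 assembly.

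Plxnc1 TSS bin, chr10:94944228-94944247, minus strand: cctaCCGCGAGGGGGCgacc
Plxnc1 partner bin, chr10:94623768-94623787, plus strand: gtgaCCACTAGGGGGCggag
Robo3 TSS bin, chr9:37420921-37420940, plus strand: gacgCCGGTAGAGGGCggcg
Robo3 partner bin, chr9:37616998-37617017, minus strand: taatCCAGCAGGTGGCagaa
Sema7a TSS bin, chr9:57944764-57944783, plus strand: tcagCCTGCAGGGGGCagtc
Sema7a partner bin, chr9:57990616-57990635, minus strand: gtggCCAGTAGGGGGCgctg
Nrp2 TSS bin, chr1:62701201-62701220, minus strand: caatCCTCTAGGGGGCagca
Nrp2 partner bin, chr1:61925196-61925215, minus strand: aacaCCACAAGAAGGCattg

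Plxnc1 encodes the plexin that binds the membrane semaphorin Sema7a, and its gene lies at chr10:94790866-94944835 on the minus strand. Its partner bin lay 320 kb downstream of the TSS, in no protein-coding gene, and was called in all 24 libraries with a median observed/expected ratio of 8.91. The 5 bins from 290 to 330 kb downstream were all called in liver too, and 3 of them had no CTCF peak. Robo3, the receptor through which commissural axons escape Slit repulsion before they cross the midline, met its partner 190 kb upstream, in a bin with the TSSs of Siae and Spa17. That interaction was called in 22 libraries with a median ratio of 4.53, and its TSS bin is not the bin that Robo3 shares with Robo4. Sema7a, the ligand of Plxnc1, met its partner 50 kb downstream in 23 libraries with a median ratio of 2.77.

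Nrp2 (chr1:62703285-62818695) had its most shared partner 780 kb upstream inside Pard3b, called in 23 libraries with a median ratio of 14.9. Around it 6 adjoining bins, from 750 to 800 kb, were each called in at least 10 tissue-stages, and 5 of the 6 had no CTCF peak in any list. Nrp1, the other neuropilin, also had distant upstream partners. Those called in at least 10 tissue-stages lay 350 to 960 kb upstream, the ones from 750 kb on inside Pard3, and the most shared one, at 930 kb, was called in 20 libraries. Pard3 and Pard3b encode related cell polarity proteins.

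Long runs of shared partner bins marked several receptors and ligands. Ephb1 (chr9:101922128-102354693), an Eph receptor for B-class ephrins, contacted 8 adjoining bins 630 to 700 kb downstream, at chr9:101650001-101730000, in 10 to 22 libraries per bin. The highest observed/expected ratio there was 21.5, none of the 8 was called in pooled liver, and 5 had no CTCF peak. Ntn1 (chr11:68209364-68400823), the netrin that attracts commissural axons, contacted 6 adjoining bins 390 to 440 kb downstream, at Stx8 and Cfap52, in 17 to 23 libraries. Its second TSS bin reached 7 bins 340 to 400 kb away in Stx8 in 16 to 22 libraries. Plxna4 had runs of 3, 4 and 6 bins at 910 to 930, 630 to 660 and 230 to 280 kb. The run of Sema4c, a membrane semaphorin, was the longest, with 11 bins 60 to 160 kb upstream, and 10 of them were called in liver. Ephb3 had 10 bins 130 to 220 kb downstream, at and near Vps8, of which 7 were called in liver.

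**Figure D2:**
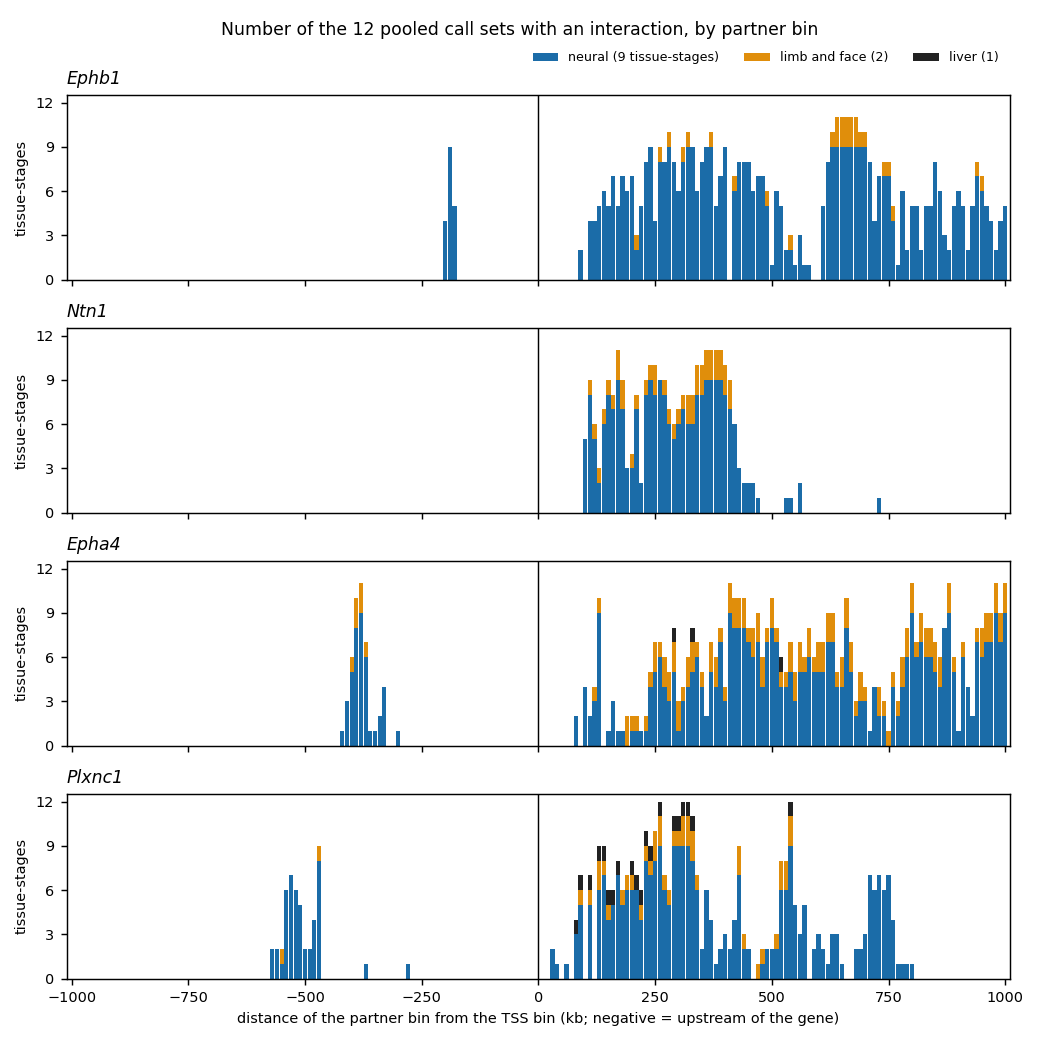
Each bar is a 10-kb partner bin of the most used TSS bin of Ephb1, Ntn1, Epha4 or Plxnc1, placed by its distance from the TSS bin (kb, negative upstream of the gene), and its height is the number of the 12 pooled call sets with an interaction, coloured by neural tissue-stages (9), limb and face (2) and liver (1). Ephb1 and Ntn1 have no black bar (the 2 liver interactions of Ntn1 were at its other TSS bin), whereas the bins of Plxnc1 at 290 to 330 kb include liver.

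Differences between tissues were tested on log2(scaled number + 1) with limma, in one fit over the 24 libraries, with Benjamini-Hochberg adjustment over the 5501 genes and a threshold of 0.05. Differences are on that log2 scale with the standard error (SE) of the fit. The spread is that between replicate libraries, and a comparison of tissues at E12.5 shares its libraries with the others. On simulated numbers with these library totals limma made more false calls in the 5 comparisons of tissues than its threshold allows. A gene is therefore called higher or lower only where it also passed edgeR's quasi-likelihood test on the unscaled numbers with library totals, and for genes past limma alone the values are given without such a word.

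The first comparison asked which guidance genes had more promoter contacts in the 4 neural tissues than in LM, CF and LV. Limma called 14 of 46 genes higher and 4 lower (30.4% and 8.7%), against 24.7% and 15.9% of all genes tested. Both tests called 12 genes higher and 0 lower (26.1% and 0%), against 13.9% and 7.2% of all genes. With other scalings the split changed to 23 higher and 0 lower (no scaling) and 17 higher and 0 lower (TMM factors in edgeR), whereas without liver 10 passed above and 7 below 0. No gene below 0 in this comparison is therefore given a direction. The p-values below measure the spread between replicate libraries, not that between tissues. With 1 mean per tissue in place of replicates, limma called only Plxna1 and Slit1. The 12 genes past both tests were 4 ligands and 8 receptors, and 6 of them had no interaction in either liver library. How many of all genes higher in both tests were at 0 in liver was not counted.

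Ephb1 stood out. Its scaled number was 29.5 and 32.2 in FB, 36.8 and 33.0 in MB, 35.3 and 28.5 in HB, 28.4 and 18.3 in NT, 8.30 and 6.23 in LM, 7.18 and 5.45 in CF, and 0 in both liver libraries. Every neural library was above every non-neural one. The difference was 2.97 ± 0.15 (limma, adjusted p = 7.28e-13).

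Among the ligands, Slit1, a repellent of brain and spinal cord axons, had 2.18 to 8.05 interactions in the 8 neural libraries (median 5.39) and 0 in all 6 others. The groups did not overlap, and the pooled sets held 1 interaction in LM, 2 in CF and none in LV. The fitted difference was 2.57 ± 0.25 (limma, adjusted p = 4.34e-08). Sema5b, a membrane semaphorin, ranged from 6.5 to 16.1 (median 9.73) against 0 to 4.31 (median 3.29), again without overlap, and the difference was 1.96 ± 0.18 (limma, adjusted p = 2.88e-08). Ntn1 ranged from 35.8 to 50.1 (median 43.0) against 1.72 to 38.2 (median 17.0). Its neural libraries overlapped those of CF alone, since CF had 31.6 and 38.2 and LM 16.6 and 17.4. The difference was 1.80 ± 0.12 (limma, adjusted p = 1.78e-10). Efna3, a lipid-anchored ephrin, had 1.41 to 8.55 against 0 to 2.08, with overlap, and its difference was 1.5 ± 0.31 (limma, adjusted p = 0.00053).

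Among the receptors, Plxna1, a plexin that pairs with neuropilins, ranged from 18.3 to 35.4 (median 25.0) in neural libraries and from 0 to 12.5 (median 5.68) in the others. The groups did not overlap, and the difference was 2.57 ± 0.40 (limma, adjusted p = 2.97e-05). Dcc, the receptor for attraction to netrins, had 2.17 to 4.83 in FB, MB and HB, 1.09 and 0 in NT, and 0 in all 6 non-neural libraries. One NT library thus overlapped the non-neural ones, and the difference was 1.73 ± 0.29 (limma, adjusted p = 6.71e-05). Plxna2 was at 0 in LM and CF, at 3.45 and 0 in LV, and at 1.22 to 7.64 in the neural libraries. The libraries thus overlapped, and the difference was 1.98 ± 0.33 (limma, adjusted p = 6.76e-05). Unc5a, a receptor for repulsion from netrins, had a difference of 1.54 ± 0.33 (limma, adjusted p = 0.00088) with 1.41 to 8.55 against 0 to 4.09. Plxnb1, with 4.22 to 6.5 against 0 to 5.45, had a difference of 1.01 ± 0.21 (limma, adjusted p = 0.00069).

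The last 2 calls were the smallest. Robo3 had 6.55 to 18.3 against 2.73 to 9.08 (0.76 ± 0.20, limma, adjusted p = 0.0052). Nrp2 had 15.2 to 37.0 against 0 to 66.4 (0.92 ± 0.26, limma, adjusted p = 0.0070). Nrp2 was highest in LM (66.4 and 46.1) and lowest in LV (5.17 and 0), and without liver its difference turned to -0.31. Plxnb1 also lost its call without liver. Sema6d and Plxna4 (above 0), and Robo1, Sema3a, Ephb3 and Sema5a (below 0) passed limma alone, with differences of 0.91, 0.53, -0.60, -1.26, -0.50 and -0.70.

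**Figure D3:**
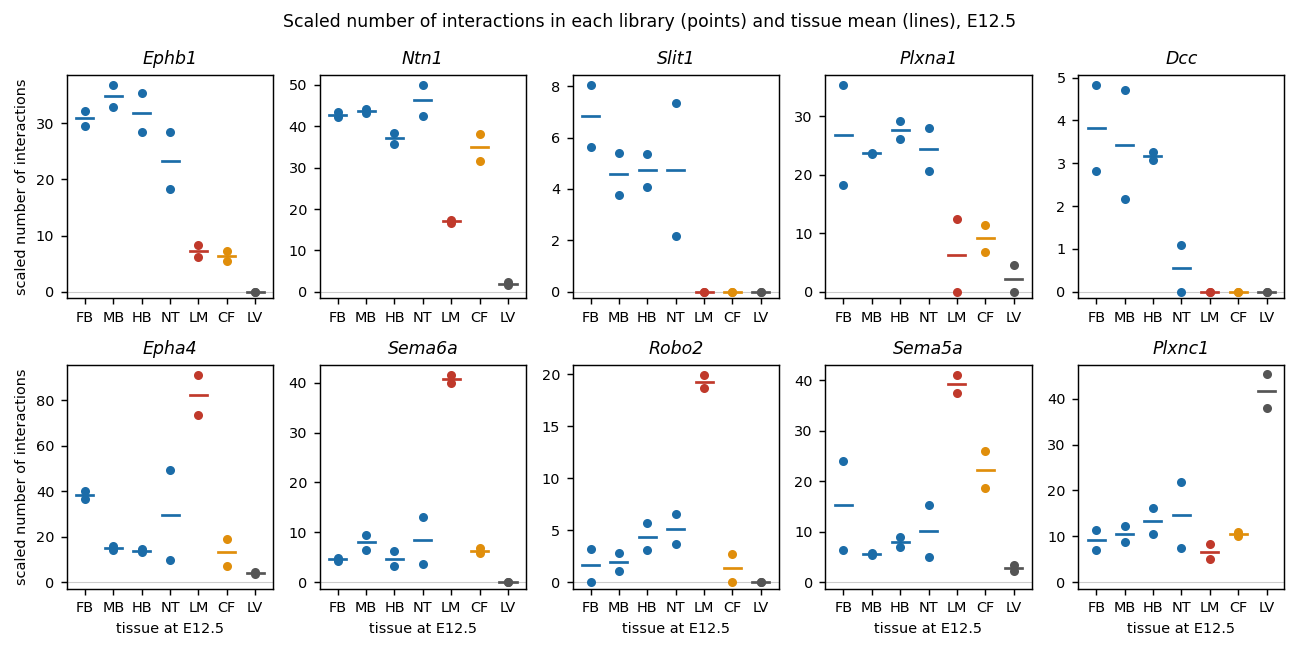
Points are the scaled numbers of interactions in each of the 2 replicate libraries of the 7 tissues at E12.5 and lines are tissue means, with a linear axis for each gene. The upper row holds genes with more interactions in neural tissues (Ephb1, Ntn1, Slit1, Plxna1, Dcc), and the lower row holds 4 genes with their highest values in limb and Plxnc1, highest in liver.

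Liver differed most. Limma called 5 genes higher and 26 lower than in the 6 other tissues (10.9% and 56.5%), against 21.5% and 27.2% of all genes tested. Both tests called 4 higher and 17 lower (8.7% and 37%), against 15.6% and 9.03% of all genes. The 17 were 9 ligands and 8 receptors, and for 14 no liver library overlapped the others, as was so for 67.8% of all genes lower in both tests. Of the 17, 11 had no interaction in either liver library, a count that was not made over all genes. The median difference over the 46 genes was -1.14, against -0.25 over all genes. DESeq2 was past its threshold for 13 of the 17 and for 1 of the 4 higher.

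Ntn1 had 1.72 and 2.27 in liver and 16.6 to 50.1 (median 40.3) in the 12 other libraries, a difference of -3.60 ± 0.17 (limma, adjusted p = 6.76e-13). Nrp2 had 5.17 and 0 against 15.2 to 66.4 (median 27.1), a difference of -3.49 ± 0.36 (limma, adjusted p = 1.13e-07). Slit3 had 1.72 and 0 against 3.22 to 21.2 (median 9.79), a difference of -2.61 ± 0.36 (limma, adjusted p = 5.18e-06). In each of these the liver libraries lay below all others.

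For 7 more of the 10 genes with the smallest adjusted p, both liver libraries were at 0 while every other library had an interaction: Ephb1, Sema5b, Efna5, Sema6a, Plxnb1, Efnb2 and Sema3f. Efna5, an ephrin that repels retinal axons, ranged from 3.07 to 27.4 elsewhere (median 8.34), Efnb2, which binds Ephb receptors, from 2.17 to 16.2 (median 6.81), and Sema3f, which repels through Nrp2, from 2.44 to 7.47 (median 3.80). Their pooled liver sets held no interaction either, except for 1 at Plxnb1. Adjusted p-values from limma for these 7 ran from 7.52e-13 (Ephb1) to 3.73e-06 (Sema3f).

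The remaining 7 genes lower in both tests were Epha4, Unc5c, Epha3, Sema5a, Plxna1, Robo2 and Slit2, with differences from -2.77 (Plxna1) to -1.86 (Sema5a). Epha4 had 3.45 and 4.54 in liver against 7.18 to 91.4. A further 9 genes passed limma alone in this direction (Slit1, Ephb2, Nrp1, Robo1, Unc5a, Unc5b, Plxna4, Efna3 and Dcc), with differences from -1.72 (Slit1) to -0.79 (Plxna4).

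Plxnc1 went the other way. It had 37.9 and 45.4 in liver and 4.98 to 21.8 (median 10.3) elsewhere, with no overlap, and the difference was 1.94 ± 0.29 (limma, adjusted p = 1.58e-05). This was relative to the few interactions of liver. In the pooled sets, which were not scaled to the total, liver had 23 interactions at Plxnc1 and the others 30.3 on average, a difference of -0.38. Sema4d, a membrane semaphorin also used by immune cells, had 6.89 and 4.54 in liver against 0 to 2.18 (2.59 ± 0.47, limma, adjusted p = 0.00014), and its pooled numbers were 3 against a mean of 2.83. Sema4d met the filter of a mean of at least 1 only with both liver libraries. Its call thus rests on the same values that admitted it to the test. Sema6b had 10.3 and 6.81 against 0 to 5.45 (1.59 ± 0.33, limma, adjusted p = 0.00049), and its pooled numbers were 4 against 3.5. Plxnd1, the receptor of Sema3e in blood vessels, had 5.17 and 4.54 against 0 to 2.73 (1.77 ± 0.52, limma, adjusted p = 0.0080), and its difference in the pooled sets was -0.06. The call of Plxnd1 was lost without either liver library and with TMM factors. Ntn4 passed limma alone, at 1.23. The red cell precursor, hepatocyte and endothelium sums, all highest in liver, moved with these values, and their part in them was not tested.

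In limb, limma called 17 genes higher and 9 lower than in the 6 other tissues (37% and 19.6%), against 14% and 18.4% of all genes tested. Both tests called 12 higher and 1 lower (26.1% and 2.17%), against 10.1% and 3.18% of all genes. The split was 10 higher and 9 lower without scaling and 11 higher and 2 lower with TMM factors. The 12 were 6 ligands and 6 receptors. For 10 of them both limb libraries lay above all 12 others, as they did for 61.2% of all genes higher in both tests, and the exceptions were Robo1 and Ephb3.

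Epha4, the Eph receptor that sorts motor axons into the dorsal limb, had 91.4 and 73.5 interactions in LM, against 36.5 and 40.2 in FB, 14.1 and 16.0 in MB, 13.1 and 14.6 in HB, 49.1 and 9.77 in NT, 7.18 and 19.1 in CF and 3.45 and 4.54 in LV. The difference was 2.42 ± 0.36 (limma, adjusted p = 3.46e-05). Its most shared partner, 380 kb upstream of the gene, was called in all tissue-stages but liver.

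Sema6a, a membrane semaphorin that binds Plxna2 and Plxna4, had 41.5 and 39.9 in LM and 0 to 13.1 (median 5.29) in the other 12 libraries. The replicates lay close together, and the difference was 3.06 ± 0.36 (limma, adjusted p = 1.71e-06). Sema5a had 37.4 and 41.1 against 2.27 to 25.9, with CF next at 18.7 and 25.9 (2.10 ± 0.34, limma, adjusted p = 7.15e-05). Robo2, a Slit receptor, had 18.7 and 19.9 against 0 to 6.55 (2.94 ± 0.48, limma, adjusted p = 8.24e-05).

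Efna5 had 18.7 and 27.4 in LM against 0 to 16.4 (2.00 ± 0.37, limma, adjusted p = 0.00027). Unc5c had 10.4 and 8.72 against 0 to 5.62 (1.72 ± 0.35, limma, adjusted p = 0.00083). Slit3 had 20.8 and 21.2 against 0 to 17.7 (1.75 ± 0.36, limma, adjusted p = 0.00086). None of these limb libraries overlapped another tissue.

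Nrp2 had 66.4 and 46.1 in LM against 0 to 37.0 (1.76 ± 0.36, limma, adjusted p = 0.00088), and Efnb2 had 8.30 and 16.2 against 0 to 7.68 (1.51 ± 0.32, limma, adjusted p = 0.0011). Robo1 had 27.0 and 19.9 against 4.54 to 23.2, so that LM and CF overlapped (1.09 ± 0.25, limma, adjusted p = 0.0019). Sema3a, a secreted repellent of sensory and motor axons, had 8.30 and 4.98 against 0 to 4.31 (2.26 ± 0.52, limma, adjusted p = 0.0023). Sema3a met the filter of a mean of at least 1 only through limb. Without limb replicate 1 it was not tested, so its call rests on the values that admitted it. Ephb3 had the smallest difference called, 0.72.

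Sema6b was the gene lower in limb in both tests, with no interaction in either limb library and 1.09 to 10.3 in the others (-2.18 ± 0.33, limma, adjusted p = 3.77e-05). Past limma alone were Sema3f, Epha3, Ephb6, Nrp1 and Sema4c (0.71 to 1.38) and Slit1, Plxna2, Plxna1, Ephb1, Plxnc1, Ntn1, Unc5a and Dcc (-2.02 to -0.58). Limma's count of 26 fell to 13 without the first limb library and to 16 without the second. Among the 12, Efnb2 lost its call without limb replicate 2, and Robo1 and Ephb3 lost theirs without limb replicate 1. The call of Ephb3 was also lost without scaling, with TMM factors and with DESeq2, and that of Robo1 without scaling. In the pooled sets, which were not scaled, Ephb3 had 31 interactions in LM and 12 (LV) to 37 (CF) in the other tissues at E12.5. The mesenchyme sum without Lhx2 was high in LM and CF alike and low in the other tissues, and its part in the limb values was not tested.

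In CF, limma called 5 genes higher and 4 lower than in the 6 other tissues (10.9% and 8.7%), against 4.76% and 4% of all genes tested. Both tests called 4 higher and 0 lower (8.7% and 0%), against 3.51% and 0.2% of all genes. Robo1 had 21.5 and 23.2 in CF against 4.54 to 27.0 (1.03 ± 0.25, limma, adjusted p = 0.010). Slit3 had 15.8 and 17.7 against 0 to 21.2 (1.39 ± 0.36, limma, adjusted p = 0.018). Ephb3 had 44.5 and 32.7 against 15.9 to 43.6 (0.78 ± 0.22, limma, adjusted p = 0.032). For these 3, and for Sema5a with 18.7 and 25.9 against 2.27 to 41.1 (1.16 ± 0.34, limma, adjusted p = 0.035), at least 1 limb library lay above a CF library. These calls rested on both CF libraries. Limma called 1 gene without CF replicate 1 and 0 without CF replicate 2, DESeq2 called 0, and the split was 0 higher and 4 lower without scaling and 4 higher and 0 lower with TMM factors. Past limma alone were Ntn1 (0.58), Slit1, Ephb1, Robo3 and Plxna2 (-1.74 to -0.94).

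**Figure D4:**
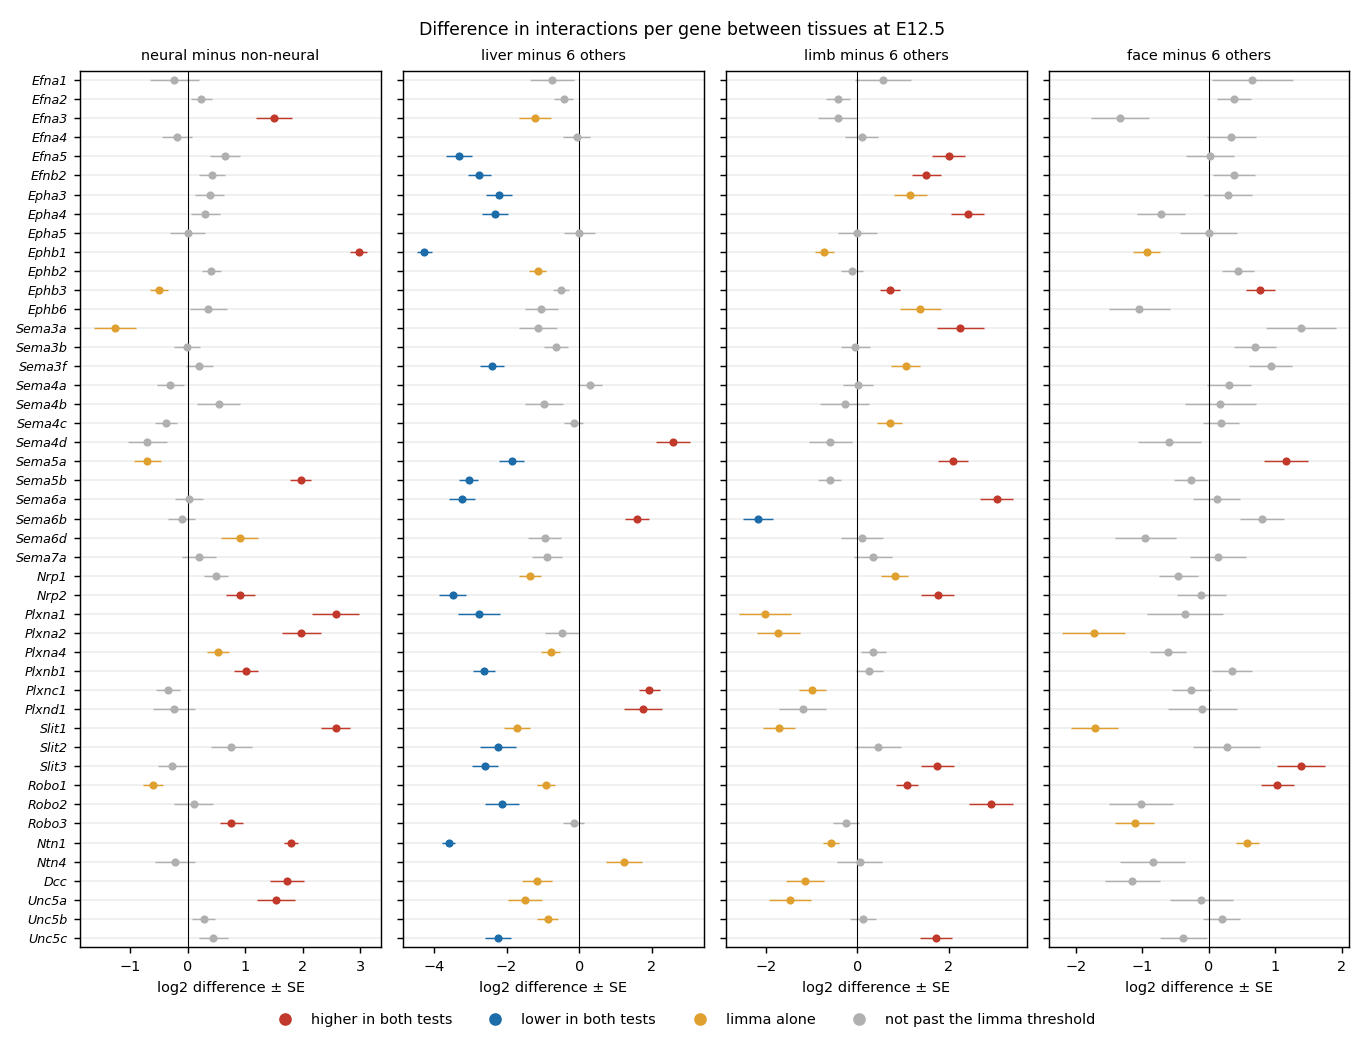
Points are differences in log2(scaled number + 1) from limma with bars of 1 SE, for the 46 genes tested, in 4 comparisons of tissues at E12.5. Red and blue mark genes higher or lower in both tests, orange those past limma alone, and grey those past neither or edgeR alone; most blue points are in the liver panel and most red ones in the neural and limb panels.

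Among neural tissues at E12.5, FB was compared with MB, HB and NT, and none of the 46 genes passed. Limma called 0 higher and 0 lower (0% and 0%), against 1.84% and 4.47% of all genes tested, and both tests called 0 and 0 (0% and 0%), against 0.909% and 0.454%. At an unadjusted p under 0.05 there were 8 genes by limma, 5 by edgeR with library totals and 1 by DESeq2. With adjustment, edgeR with TMM factors and DESeq2 called 0. A count of 0 does not show that the numbers were alike.

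Over forebrain development, the later stages (E16.5 and P0) were compared with E12.5 and E13.5. Limma called 4 genes higher and 3 lower (8.7% and 6.52%), against 9.16% and 6.27% of all genes tested, shares near the background. Both tests called 3 higher and 3 lower (6.52% and 6.52%), against 6.87% and 5.14% of all genes. The direction rests on scaling, since all 4 late libraries held more interactions than the 4 early ones: without scaling 19 genes were called higher and 0 lower, and the median of all genes was 0.83 in place of 0.13.

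Ephb6, an Eph receptor without kinase activity, had 0 in both libraries at E12.5, 0 and 0.95 at E13.5, 0.79 and 1.05 at E14.5, 1.64 and 2.91 at E15.5, 2.20 and 4.22 at E16.5 and 3.65 and 7.83 at P0. The early and late libraries did not overlap, and the difference was 2.11 ± 0.42 (limma, adjusted p = 0.0021). Its pooled numbers at these stages were 2, 5, 7, 8, 13 and 21. DESeq2 did not call Ephb6. Plxnc1 had 7.03, 11.3, 15.1 and 17.1 in the early libraries and 19.1, 28.8, 19.4 and 24.7 in the late ones, without overlap (0.86 ± 0.27, limma, adjusted p = 0.034), but its call was lost without 6 of the 8 libraries left out in turn. Robo2 had 0, 3.22, 0.84 and 1.91 early and 8.80, 16.2, 2.03 and 3.61 late. The E16.5 libraries were the high ones, P0 overlapped E12.5, and the difference was 1.68 ± 0.44 (limma, adjusted p = 0.014), a call lost without 4 of the 8 libraries in turn.

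Ntn1 fell. It had 42.2, 43.5, 28.5 and 30.5 early and 18.3, 16.2, 18.6 and 22.9 late, without overlap, and the difference was -0.88 ± 0.16 (limma, adjusted p = 0.00094). The fall was relative to the total. Its pooled numbers were 43 and 42 early and 36 and 50 late, and without scaling the difference was 0.05. The call of Ntn1 was also lost with DESeq2. Robo3 had 18.3, 9.66, 9.22 and 13.3 early and 2.93, 4.92, 6.48 and 6.02 late, without overlap (-1.16 ± 0.27, limma, adjusted p = 0.0060), and its pooled numbers were 21 and 16 early and 14 at both late stages. The call of Robo3 was lost without scaling and with DESeq2. Ephb2 had 15.5, 24.1, 11.7 and 9.53 early and 8.06, 9.84, 5.67 and 7.22 late (-0.84 ± 0.22, limma, adjusted p = 0.014), and was 0.04 without scaling. Its call was also lost without 4 of the 8 libraries in turn, without P0, and with TMM factors or DESeq2. Epha5 had 0, 0, 3.35 and 0 early and 5.13, 7.03, 2.03 and 0.60 late, with overlap, and passed limma alone (1.44 ± 0.40, limma, adjusted p = 0.017). It met the filter on the mean only with its late libraries. The neuronal marker sum was also higher later, from 4.83 and 11.2 at E12.5 to 67.2 and 72.2 at P0, and the neural progenitor sum was lower, at 118 and 116 at E12.5 and 30.4 and 33.1 at P0. Of the neuronal sums Myt1l held 3.22 and 8.43 at E12.5 and 45.8 and 53.0 at P0. Of the progenitor sums Pax6 held 57.6 and 54.7 at E12.5 and 12.2 and 14.4 at P0, and Sox2 most of the rest. The sums thus rest on few genes. Their part in these values was not tested.

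**Figure D5:**
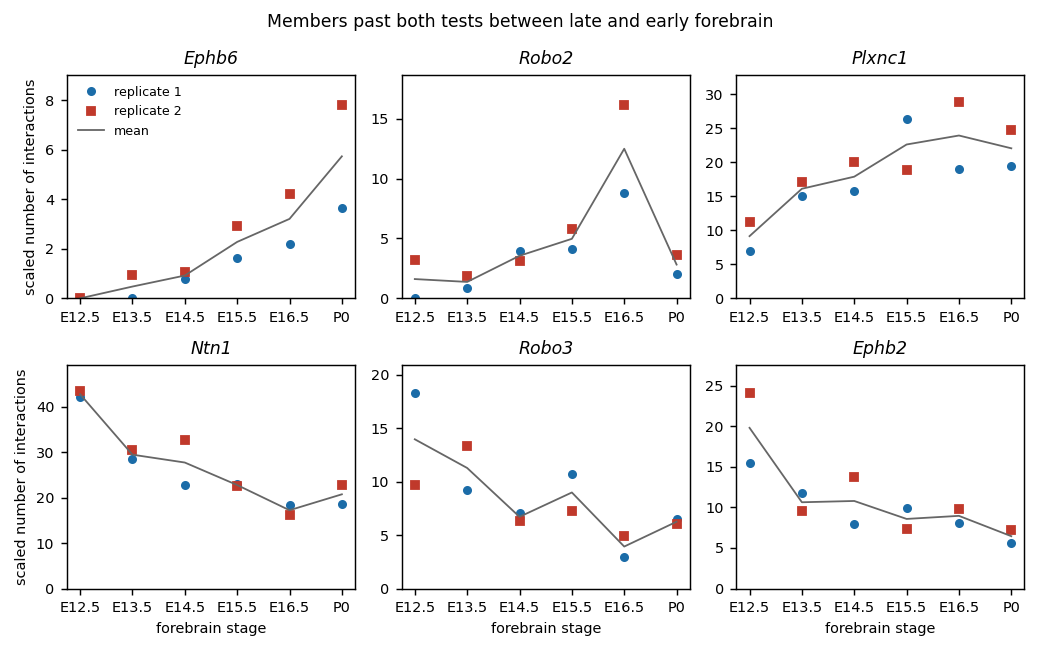
Scaled numbers of interactions in the forebrain at 6 stages, with circles and squares for the 2 replicate libraries and a line through their means, for the 6 genes past both tests between late (E16.5 and P0) and early (E12.5 and E13.5) stages. Ephb6, Robo2 and Plxnc1 lie higher late and Ntn1, Robo3 and Ephb2 lower, with the peak of Robo2 at E16.5.

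Other genes of axon guidance, from adhesion molecules to the adaptors inside the growth cone, were taken as a list of 65, of which 47 were tested, by limma alone. In neural tissues 23 passed above 0 and 7 below, in liver 5 and 27, in limb 10 and 18, in CF 2 and 10, in FB 2 and 4, and in late forebrain 7 and 5. The background shares are those given for each comparison above. Srgap3, an intracellular partner of Robo receptors, had a mean of 20.4 in neural and 1.16 in non-neural libraries (3.67 ± 0.16, limma, adjusted p = 9.41e-14). Rgma, a repellent ligand of neogenin, had 1.72 in liver and 46.1 elsewhere (-4.39 ± 0.31, limma, adjusted p = 2.53e-10). Cdon, a cell surface co-receptor for hedgehog proteins, had 23.7 in limb and 6.39 elsewhere (2.16 ± 0.26, limma, adjusted p = 3.09e-06). Chl1, an L1-family adhesion molecule, had 0 in FB and 6.61 in the other neural tissues (-2.91 ± 0.31, limma, adjusted p = 3.78e-06), and in late forebrain 8.40 against 2.24 early (1.99 ± 0.27, limma, adjusted p = 5.31e-05).

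CTCF was common at the start sites of the guidance genes. A peak lay in 34.4% (LV) to 51.6% (FB at E15.5) of their 157 TSS bins in the 12 lists, against 31.0% to 41.4% of all TSS bins. By gene, 42 of 66 (63.6%) had a peak in a TSS bin in all 12 lists, against 38.5% of all genes, and 3 (4.55%) had none in any list, against 31.2%. These are descriptions, since genes differ in their number of TSS bins. In 31 TSS bins whose motif matches pointed in 1 direction, 2277 of 3554 pooled calls (64.1%) ran along the motif, against 68.0% over all such TSS bins. Where matches at summits of any single list were used the shares were 52.0% and 62.9%. A pair called in several tissue-stages counts each time, and a few busy bins among the 31 weigh most. Calls along the motif were 559 of 606 at Epha4, 482 of 535 at Nrp2 and 379 of 428 at Plxnc1. At Plxna4 they were 123 of 568, at the busier bin of Plxna2 17 of 215 and at Sema4c 0 of 164.

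Contacts between guidance genes themselves were few. Epha1 and Ephb6 were joined in 5 tissue-stages but in 0 replicate libraries, Sema3a and Sema3d in 4 tissue-stages and 4 libraries, and Sema3b and Sema3f in 3 tissue-stages and 3 libraries. Efna3 and Efna4, whose genes are neighbours, reached the same bin at Ube2q1, 450 and 440 kb away, in the same 11 tissue-stages.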

How the data were processed

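Per the labels and the study's methods, the authors mapped PLAC-seq reads to mm10 and ran MAPS on pairs of 10-kb bins. The deposited calls give for each pair the count of read pairs, the expected signal of the MAPS model and an FDR. In the 36 call sets the FDR was at most 1.00%, the observed/expected ratio at least 2.00 and the distance 20 to 1000 kb, on 19 autosomes. The 24 replicate sets were 1 library each, and the 12 pooled sets were downsampled by the authors to equal reads. The deposited CTCF peaks carry a fold enrichment (ratio) over input from MACS2, of which only positions were used, with 2 lists per tissue-stage. The limb tissue of 1 second list was named by another abbreviation and taken as limb by elimination.

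TSS bins were those of all transcripts of a protein-coding gene in GENCODE M21 (GRCm38, the assembly of mm10). Numbers per gene were scaled to 25872 interactions per library, and log2(number + 1) was fitted with limma 3.58.1 (R 4.3.3) with a mean per tissue-stage, for genes with a mean of at least 1. edgeR 4.0.16 and DESeq2 1.42.0 used the unscaled numbers. Matplotlib 3.10.9 drew the plots. Limma and edgeR with library totals were run on simulated numbers, where limma made too many false calls in the comparisons of tissues and edgeR did not. DESeq2 and edgeR with TMM factors were not run on simulated numbers. Directions are therefore given for genes past both tests, a choice made after the data were seen.

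Genes were named if past the threshold in any comparison, or if highest by pooled total in their family, and of the other axon guidance genes from the 5 with the smallest adjusted p per comparison. Partner genes, shared runs and motif pairs were chosen after their values were seen. The members and lists were chosen with earlier results of these data known. H3K4me3 peaks were not used here.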

Additional observations from a re-analysis of the deposited data

How the results depend on the processing

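The counts of genes past limma (18 neural, 31 liver, 26 limb, 9 CF, 0 FB, 7 stage) were recomputed with other choices. With 1 mean per tissue in place of replicates the counts were 2 in neural, 11 in liver, 0 in limb and 0 in CF. DESeq2 gave 15 in liver, 10 in limb, 0 in CF and 3 by stage, edgeR with TMM factors 13 in limb and 4 in CF, and edgeR with library totals, added after seeing the data, 13 and 4. Without scaling there were 4 in CF, 5 in FB and 19 by stage. CF gave 5 without a filter and 4 with the outermost TSS bin. FB gave 2 with a pseudocount of 0.5, 1 with a mean of at least 2, 1 without shared bins and 4 with calls in both replicates or the pooled set. With each library left out in turn the ranges were 15 to 22 in neural, 21 to 34 in liver, 13 to 26 in limb, 0 to 10 in CF, 0 to 2 in FB and 3 to 6 by stage, with the lowest values without a library of the tissue itself in liver (LV replicate 2, 21), limb (LM replicate 1, 13) and CF (CF replicate 2, 0), and without FB E13.5 replicate 1 (3) by stage.

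Without scaling the difference of Ephb3 in neural tissues was 0.073 and those of Ntn1 and Ephb2 by stage 0.048 and 0.037, all reversed. Nrp2 in neural tissues was -0.31 without liver. In the pooled sets, which were not scaled, the differences were 0.18 for Ephb3 (neural), -0.38, -0.059 and -0.81 for Plxnc1, Plxnd1 and Ntn4 (liver), 0 and -0.45 for Epha3 and Ephb6 (limb) and 0.016 for Ntn1 (stage). Of 2492 values of single genes under an alternative, 2061 kept their direction and side of the threshold or moved by less than the replicate spread, and the cause of the other changes was not tested. The second CTCF lists gave 42.0% at E15.5 and 38.2% at P0 of TSS bins with a peak, against 51.6% and 49.0%. CTCF at P0 was assayed in a single library.

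Same-numbered replicates did not deviate together (r from -0.07 to 0.04 over 21 pairs of tissues and -0.04 to 0.08 over 15 pairs of stages), so the numbers pair nothing. With the replicate number as a block the counts were 18, 31, 25, 9, 0 and 7. In a library with few interactions 1 interaction is a larger scaled number, so low numbers are less precise there.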
